A study of Homo sapiens with 50 samples.

Results

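AP-1 is a transcription factor built as a pair of proteins from the FOS and JUN families, which hold each other through a leucine zipper and bind DNA with the basic stretch next to it. FOS family proteins need a JUN partner, whereas JUN family proteins can also pair among themselves. Several of these genes, with EGR1, belong to the immediate early genes, whose transcription starts within minutes of a growth factor or stress signal without new protein synthesis and is then shut off. In liver, JUN is known for its part in hepatocyte survival and regeneration. The set described here held 10 genes: the FOS family (FOS, FOSB, FOSL1, FOSL2), the JUN family (JUN, JUNB, JUND), and JDP2, MAFF and EGR1. They were taken by gene name from a table of FPKM, fragments scaled to transcript length and to the mapped fragments of a library, and the FPKM of all transcripts of a name were added. All 10 were in the table, out of 79112 genes and loci, with 52 transcripts between them, and all 10 were among the 24222 tested.

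The study measured total RNA of differentiated HepaRG cells, a human hepatic progenitor line that matures in culture into cells like hepatocytes and cells like those of bile ducts. From day 8 to day 14 of culture the cells received 0.1 uM, 10 uM or 1 mM of quizalofop-p-ethyl, isoxaflutole or mesotrione, and 1 control group received none of them, per the labels. All groups shared a medium with 2% serum and 1% DMSO. Quizalofop-p-ethyl is an ester herbicide that inhibits acetyl-CoA carboxylase in grasses, and isoxaflutole and mesotrione are herbicides that act on a plant enzyme of tyrosine breakdown. Each of the 10 groups had 5 libraries. HepaRG is 1 cell line, and no label ties a library to its own culture. The p-values thus cover only the scatter among these libraries, which may be technical. All comparisons with control used the same 5 control libraries, and the comparisons between compounds share libraries with them, so they are not independent. The cells were sequenced in bulk, so fewer cells of a type and less RNA per cell cannot be told apart.

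One library, replicate 5 of the 10 uM quizalofop-p-ethyl group, was far from the rest and was left out. It reached 1 FPKM in 6782 genes and held about 3720000 fragments by estimate, against 16996 to 20321 genes and 7080000 to 33890000 fragments in the other 49 libraries. In it, the 10 genes ran from 0.275 FPKM for FOSB to 15.2 FPKM for JUND. HNF4A, albumin and the other 10 hepatocyte markers were present in control, where their summed level was 20205 to 23777 FPKM. Group values below are means ± SD of 5 libraries, of 4 for quizalofop-p-ethyl at 10 uM. Fold changes were computed from log2(FPKM + 1), so those of genes near 0 are understated. FOSB, FOSL2, JUNB, JDP2 and MAFF overlap transcripts of other named genes. The overlapping transcripts averaged 0.321 FPKM or less per gene, which is not the level of those whole genes. Assembled transcripts with no gene name overlap FOSB (0.0668 FPKM on average), JUN (0.184 FPKM) and JDP2 (0.860 FPKM). The use of strand in counting is not stated in the labels. A gene was called where limma's adjusted p was under 0.05, with Benjamini-Hochberg adjustment over all 24222 tested genes of a comparison.

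The promoters of 3 genes that rose with quizalofop-p-ethyl at 1 mM are shown beside that of EGR1, which was not called, so that their sequences can be set against the levels below. Capitals mark the CRE (TGACGTCA), the site for ATF and CREB proteins and for some JUN pairs, in MAFF and JUND. In FOSB they mark a TATA box (TATAAA). In EGR1 they mark 1 EGR site (GCGNGGGCG) and 2 CArG boxes, the sites of serum response factor. The sequences are from RefSeq, build GRCh38.p14, 5′ to 3′ on the strand of the gene. The MAFF stretch lies inside the span of the MAFF transcript with the most FPKM, of 2490 bases.
MAFF, chr22:38201930-38201959, plus strand, 30 bases around the CRE: gccgggtcggTGACGTCAccgcatgactgg
FOSB, chr19:45467746-45467995, plus strand, the 250 bases before the start: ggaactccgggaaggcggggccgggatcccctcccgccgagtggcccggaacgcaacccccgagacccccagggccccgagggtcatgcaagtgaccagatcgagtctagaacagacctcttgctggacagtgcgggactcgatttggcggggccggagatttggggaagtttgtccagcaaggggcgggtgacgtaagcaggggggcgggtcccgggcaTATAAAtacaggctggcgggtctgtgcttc
JUND, chr19:18281623-18281872, minus strand, the 250 bases before the start: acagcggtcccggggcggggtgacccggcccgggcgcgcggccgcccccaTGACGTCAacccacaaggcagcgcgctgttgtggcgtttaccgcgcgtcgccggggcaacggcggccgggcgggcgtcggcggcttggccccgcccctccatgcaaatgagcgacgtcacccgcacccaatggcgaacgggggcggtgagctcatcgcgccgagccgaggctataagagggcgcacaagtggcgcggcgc
EGR1, chr5:138465229-138465478, plus strand, the 250 bases before the start: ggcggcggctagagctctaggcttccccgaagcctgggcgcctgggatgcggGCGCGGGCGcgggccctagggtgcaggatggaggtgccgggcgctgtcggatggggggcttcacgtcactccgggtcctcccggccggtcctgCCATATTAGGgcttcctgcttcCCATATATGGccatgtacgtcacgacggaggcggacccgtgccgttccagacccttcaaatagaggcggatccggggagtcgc

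The RefSeq table held promoters of 250 bases before and 50 after the start for 9 of the 10 genes, all but FOSL1, in 12 windows. Both strands were searched for 6 motifs, and no match overlapped another. Starts here are those of RefSeq, and transcripts in these data can start elsewhere. The CRE was in MAFF, 54 to 47 bases before the start, and in JUND, at positions -200 to -193 from the start. It was in 1.85% of all 35114 promoters. In MAFF the CRE lay inside the span of the leading transcript in these data, which starts at 38201882. Within these windows the CArG box was in EGR1 alone among the 9 genes and in 1.29% of all promoters. Sequence farther from the start, also that of FOS, was not searched. The TATA box was in FOS, FOSB and JUNB and in 11.5% of all promoters. In FOS the TATA box lay inside the span of the leading transcript in these data, which starts at 75278774. The AP-1 site itself (TGANTCA) was in FOSL2 and in 7.71% of all promoters. The EGR site was in EGR1 and JDP2 and in 9.43% of all, and the ATF4 composite site (TGATGNAA) was in JDP2 and in 3.62%. JUN had none of the 6 in its window, 58783998 to 58784297. That window lies wholly inside the 1 JUN transcript of these data, 58780788 to 58784327, so no base before that transcript was searched. A match is a stretch of letters, not a measured binding site.

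At control level the 10 genes spanned a wide range of FPKM, a scale that is already divided by transcript length. JUND was highest at 84.2 ± 8.84, above 97.8% of tested genes, followed by EGR1 at 50.7 ± 18.6 and JUNB at 46.8 ± 5.74. FOSL2 at 21.3 ± 3.02 and JUN at 20.2 ± 3.92 came next. EGR1 and JUNB did not differ beyond their spread, nor did FOSL2 and JUN, or JDP2 and FOSL1. FOS stood at 10.7 ± 3.64, JDP2 at 7.03 ± 1.47, FOSL1 at 6.73 ± 2.03 and MAFF at 3.28 ± 0.314. FOSB was lowest, at 0.394 ± 0.134. FOSB reached 1 FPKM in 8 of 49 libraries, 5 of them with quizalofop-p-ethyl at 1 mM, 2 with mesotrione at 1 mM and 1 with isoxaflutole at 1 mM. It therefore entered the tests, which asked for 1 FPKM in at least 5 libraries, through the groups in which it was high.

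**Figure D1:**
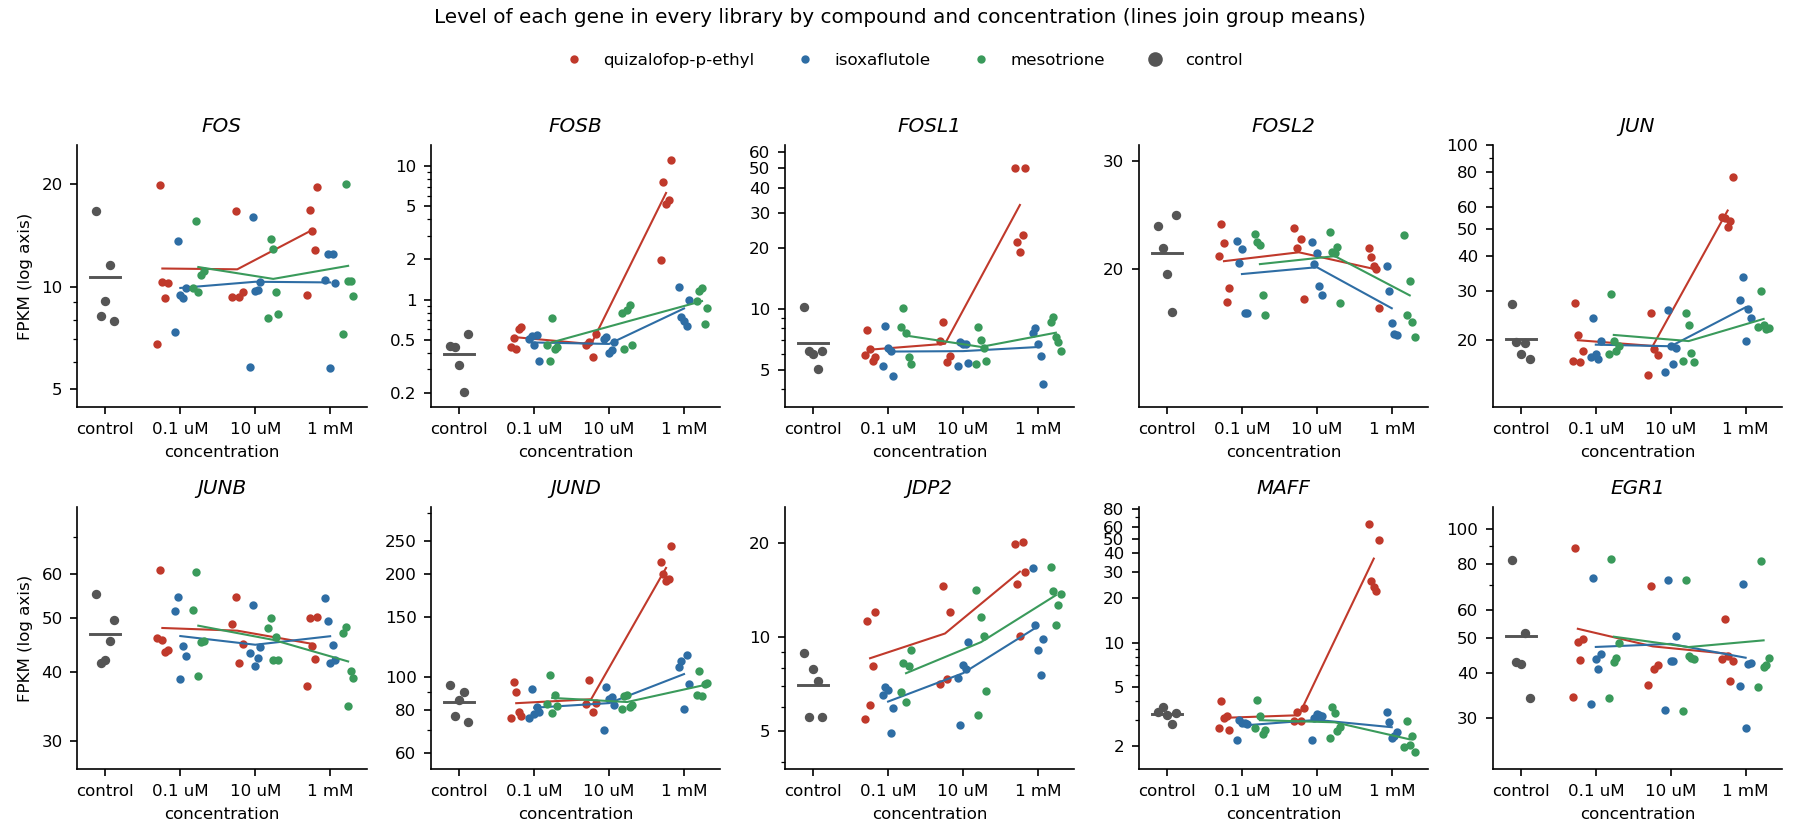
FPKM (log axis) of the 10 genes in every library, with control at the left and 0.1 uM, 10 uM and 1 mM of quizalofop-p-ethyl, isoxaflutole and mesotrione to its right; each point is 1 library, and bars and lines show group means. For MAFF, FOSB, FOSL1, JUN and JUND the 5 libraries of quizalofop-p-ethyl at 1 mM lie above all other libraries.

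With quizalofop-p-ethyl at 1 mM, MAFF, FOSB, FOSL1, JUN, JUND and JDP2 rose relative to control, and FOS, FOSL2, JUNB and EGR1 were not called. That is 6 of 10 genes higher and 0 lower, where 13% of all tested genes were called higher and 32.7% were called in either direction. FOSB, among these 6, entered the tests through the groups in which it was high, so its call is not separate support. The same holds in each comparison below in which FOSB was called. In all 6 every library of quizalofop-p-ethyl at 1 mM lay above every control library, which held for 9.10% of tested genes. The median log2 fold change was 1.19 over the 10 genes and -0.08 over all tested genes. The 10 genes, and the gene lists below, were chosen with earlier results of these data known. Their contrast with all tested genes is thus not independent support. The calls of MAFF, FOSB, FOSL1, JUN and JUND held under all 9 alternative settings and with each library left out in turn. The call of JDP2 rests on how its transcripts are added, as described below.

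MAFF encodes a small MAF protein, which has a leucine zipper but no activation domain and pairs with factors such as NRF2 and BACH1. In the 5 libraries of quizalofop-p-ethyl at 1 mM it had 63.5, 25.9, 23.8, 22.3 and 49.1 FPKM, against 3.38, 3.66, 3.24, 2.80 and 3.33 FPKM in control. The groups were far apart, and replicates 1 and 5 of the exposed cells were well above the other 3. The log2 fold change was 3.02 (SE 0.17, adjusted p = 1.609e-18), rank 33 of 24222 genes from the highest. MAFF lies on chromosome 22, 38200767 to 38216511, GRCh38, and its 2490-base transcript held 92.3% of its FPKM.

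FOSL1 encodes FRA1, a FOS family protein known from invasive and proliferating cells. It had 49.9, 21.4, 19.1, 23.4 and 50.2 FPKM with quizalofop-p-ethyl at 1 mM, against 10.3, 6.20, 5.96, 5.03 and 6.20 FPKM in control. Replicates 1 and 5 were again the highest, and no exposed library reached down to the highest control. The log2 fold change was 2.04 (SE 0.20, adjusted p = 3.462e-11; chromosome 11, 65892049 to 65900573).

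FOSB, an immediate early member of the FOS family, had 1.98, 7.54, 5.22, 5.58 and 11.1 FPKM with quizalofop-p-ethyl at 1 mM. Control libraries had 0.451, 0.438, 0.324, 0.204 and 0.554 FPKM. Here replicate 1, the highest for MAFF, was the lowest of the exposed libraries. The log2 fold change was 2.25 (SE 0.17, adjusted p = 2.197e-14), and the ratio of the group means was 15.9. A single-exon transcript of 2182 bases, annotated in GENCODE 29 as a retained intron (chromosome 19, 45469886 to 45472067), averaged 2.71 ± 1.35 FPKM with quizalofop-p-ethyl at 1 mM and 0.0983 ± 0.0852 FPKM in control. It was the leading FOSB transcript of the table, with 31.2% of the gene's FPKM over the 49 libraries. Libraries of total RNA hold unspliced RNA, and whether this transcript stands for it was not tested.

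JUN, the founding partner of FOS, had 55.1, 54.7, 50.9, 53.4 and 77.1 FPKM with quizalofop-p-ethyl at 1 mM, against 26.9, 19.7, 17.8, 19.5 and 17.1 FPKM in control. The exposed libraries lay close together apart from replicate 5, and all 5 were above all controls. The log2 fold change was 1.48 (SE 0.16, adjusted p = 1.707e-10; chromosome 1, 58780788 to 58784327, 1 exon).

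JUND, the JUN family member that is made in resting cells as well, had 217, 199, 190, 193 and 241 FPKM with quizalofop-p-ethyl at 1 mM, against 94.4, 76.7, 85.6, 90.5 and 73.8 FPKM in control. The groups were far apart, and the coefficient of variation was 10.2% in the exposed cells, the smallest of the 6 there, and 10.49% in control. The log2 fold change was 1.29 (SE 0.09, adjusted p = 8.425e-16; chromosome 19, 18279760 to 18281622, 1 exon in its leading transcript).

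The 4 genes that were not called had groups that overlapped. FOS, the best known immediate early gene, had 9.48, 16.9, 14.6, 12.8 and 19.7 FPKM with quizalofop-p-ethyl at 1 mM, against 16.7, 8.22, 9.06, 11.6 and 7.91 FPKM in control. Exposed libraries were high in replicates 2 and 5 and low in replicate 1, with a log2 fold change of 0.44 (95% interval -0.07 to 0.94, adjusted p = 0.190). EGR1, a zinc finger factor induced through serum response factor, averaged 45.3 ± 6.87 FPKM in exposed cells and 50.7 ± 18.6 FPKM in control (log2 fold change -0.11, 95% interval -0.64 to 0.43). JUNB, which can oppose JUN in cell growth, averaged 44.9 ± 5.36 FPKM in exposed cells and 46.8 ± 5.74 FPKM in control, with an interval of -0.28 to 0.17. FOSL2, which encodes FRA2, averaged 20.03 ± 1.67 FPKM in exposed cells and 21.3 ± 3.02 FPKM in control, with an interval of -0.29 to 0.14. The estimates of JUNB and FOSL2 changed sign under median-ratio scaling.

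**Figure D2:**
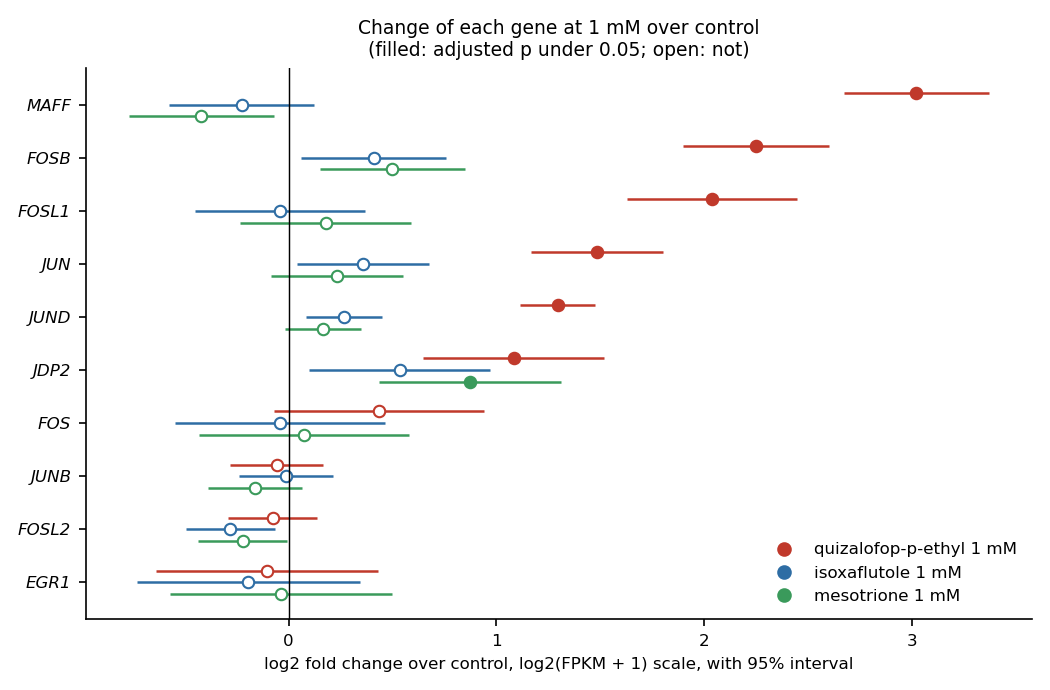
Log2 fold change over control on the log2(FPKM + 1) scale, with 95% interval, of each of the 10 genes at 1 mM of quizalofop-p-ethyl, isoxaflutole and mesotrione; filled points have an adjusted p under 0.05. For quizalofop-p-ethyl 6 points are filled, from 3.02 for MAFF to 1.08 for JDP2, for mesotrione only JDP2 at 0.87, and for isoxaflutole none.

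The make-up of both families differed between exposed and control libraries, as a description with no test. The 4 FOS family genes summed to 73.8 ± 16.5 FPKM with quizalofop-p-ethyl at 1 mM and to 39.1 ± 6.89 FPKM in control. FOSL1 was 42.7% ± 12.4 of that sum in exposed libraries, with a range of 32.1% to 60.1%, and 17.0% ± 2.00 in control, with a range of 14.9% to 20.2%. FOSL2 was 28.3% ± 6.72 of it in exposed libraries and 54.9% ± 6.65 in control. FOSB was 8.56% ± 3.65 in exposed libraries and 1.01% ± 0.311 in control. The 3 JUN family genes summed to 311 ± 33.7 FPKM in exposed libraries and 151 ± 15.8 FPKM in control. JUND was the main part of that sum in both, at 66.9% ± 1.87 in exposed libraries and 55.7% ± 2.79 in control, and JUNB was 14.5% ± 1.67 in exposed libraries and 30.97% ± 2.59 in control.

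**Figure D3:**
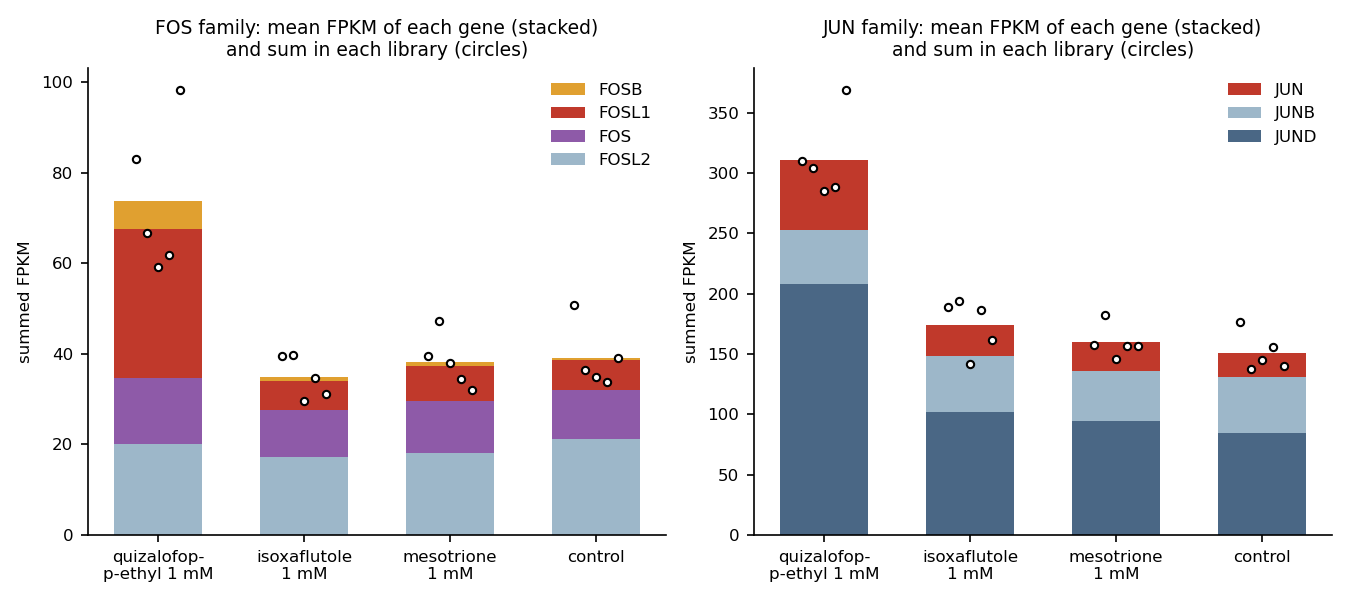
Stacked mean FPKM of the FOS family genes (left) and JUN family genes (right) at 1 mM of the 3 compounds and in control, with the summed FPKM of each library as circles. The FOS family sum lies between 59.2 and 98.2 FPKM in the 5 libraries of quizalofop-p-ethyl at 1 mM and between 33.9 and 50.9 FPKM in control.

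Markers of cell types moved in the same libraries. All 12 hepatocyte markers fell with quizalofop-p-ethyl at 1 mM, and their summed level was 229 to 5621 FPKM in exposed libraries and 20205 to 23777 FPKM in control. Of 5 tested biliary and progenitor markers 3 fell, with sums of 85.5 to 185 FPKM in exposed libraries and 635 to 725 FPKM in control, and EPCAM and CFTR were at 0 in all exposed libraries and averaged 0.0232 and 0.433 FPKM in control. Of 6 tested mesenchymal markers 4 fell and 1 rose, with sums of 14.9 to 26.6 FPKM against 52.3 to 67.96 FPKM in control, and COL1A2 was at 0 in all exposed libraries and averaged 0.0021 FPKM in control. Of 3 tested leukocyte markers 2 fell, with sums of 2.73 to 15.6 FPKM against 8.80 to 36.3 FPKM in control, PTPRC and CD3E were at 0 in all exposed libraries, and in control PTPRC averaged 0.0305 FPKM and CD3E was at 0 as well. The 1 tested endothelial marker fell, with sums of 0.389 to 0.939 FPKM against 1.69 to 2.37 FPKM in control. Within the exposed group, replicates 1 to 5 had hepatocyte sums of 5621, 1516, 2618, 2153 and 229 FPKM, so replicate 5, the highest for FOS, FOSB, FOSL1, JUN and JUND, was the lowest in hepatocyte markers. Replicate 1 had the most. That replicate was the highest for MAFF and the next after replicate 5 for FOSL1 (49.9 against 50.2 FPKM), JUN and JUND. It was the lowest for FOS and FOSB. The part of these markers in the results was not tested.

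Isoxaflutole at 1 mM gave no call among the 10 genes with limma against control, where 2.42% of all tested genes were called. limma's unadjusted p was under 0.05 for 5 of the 10 and for 3056 of 24222 tested genes. FOSB was the 1 gene of the 10 whose groups did not overlap upward, which held for 2.46% of tested genes: it had 1.23, 0.744, 0.686, 0.634 and 0.993 FPKM with isoxaflutole at 1 mM, against 0.204 to 0.554 FPKM in control. Its log2 fold change was 0.41 (SE 0.17, adjusted p = 0.278). JUND averaged 102 ± 14.2 FPKM with isoxaflutole at 1 mM and 84.2 ± 8.84 FPKM in control (log2 fold change 0.27, adjusted p = 0.124), with 4 of 5 exposed libraries above all controls. The share of all tested genes with 4 of 5 libraries above all controls was not computed. Replicate 3 of isoxaflutole at 1 mM was the lowest for JUND, at 80.3 FPKM, and without it JUND was called (0.35, adjusted p = 0.0239). Over the 9 alternatives its adjusted p ran from 0.0341 to 1.00. JUN averaged 26.2 ± 5.03 FPKM in exposed cells and 20.2 ± 3.92 FPKM in control, and FOSL2 17.3 ± 2.02 FPKM in exposed cells and 21.3 ± 3.02 FPKM in control. Neither was called, with adjusted p of 0.306 for JUN and 0.197 for FOSL2. Each was called in 1 of 9 alternatives, over which the adjusted p ran from 0.0334 to 0.951 for JUN and from 0.00181 to 1.00 for FOSL2. The intervals of FOS (-0.55 to 0.46), FOSL1 (-0.45 to 0.37) and MAFF (-0.57 to 0.12) excluded the sizes measured with quizalofop-p-ethyl for FOSL1 and MAFF, and included that for FOS. Of the hepatocyte markers 2 of 12 fell with isoxaflutole at 1 mM, with sums of 10409 to 19333 FPKM, and of the mesenchymal markers 3 of 6 fell, with sums of 20.5 to 28.6 FPKM, and their part in these values was not tested.

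With mesotrione at 1 mM JDP2 was the 1 gene of the 10 that was called against control, where 0.879% of all tested genes were called and 0.178% were called higher. FOSB and JDP2 had groups that did not overlap, which held upward for 1.06% of tested genes. FOSB had 0.968, 1.15, 1.23, 0.654 and 0.867 FPKM with mesotrione at 1 mM, against 0.204 to 0.554 FPKM in control, and its log2 fold change of 0.50 was not called (adjusted p = 0.222). With a pseudocount of 0.1, which weighs low levels more, FOSB was called for mesotrione (1.14, adjusted p = 0.0277) and for isoxaflutole (0.96, adjusted p = 0.0488). Over the 8 alternatives that gave a value, the adjusted p of FOSB ran from 0.0277 to 0.633 for mesotrione and from 0.0488 to 0.686 for isoxaflutole. MAFF averaged 2.22 ± 0.446 FPKM with mesotrione at 1 mM and 3.28 ± 0.314 FPKM in control, a log2 fold change of -0.42 with an adjusted p of 0.378. The other 7 genes had estimates between -0.22 and 0.23. Of the hepatocyte markers 1 of 12 fell with mesotrione at 1 mM, with sums of 12693 to 20940 FPKM, and of the mesenchymal markers 2 of 6 fell, with sums of 21.1 to 33.4 FPKM, and their part in these values was not tested.

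JDP2 encodes a bZIP protein that pairs with JUN proteins and is known as a repressor at AP-1 and CRE sites. It had 19.96, 14.8, 10.1, 20.1 and 16.1 FPKM with quizalofop-p-ethyl at 1 mM, 16.7, 14.0, 10.99, 12.7 and 13.8 FPKM with mesotrione at 1 mM, and 16.7, 10.97, 9.12, 7.56 and 9.85 FPKM with isoxaflutole at 1 mM. Control libraries had 8.88, 5.56, 7.93, 7.22 and 5.56 FPKM. The summed level was called for quizalofop-p-ethyl (log2 fold change 1.08, SE 0.22, adjusted p = 7.997e-05) and mesotrione (0.87, SE 0.22, adjusted p = 0.0318), and not for isoxaflutole (0.53, adjusted p = 0.248).

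The transcripts of JDP2 did not move together. A transcript of 631 bases (chromosome 14, 75428046 to 75469384), whose last exon ends 95 bases in and holds no sequence after the coding part in GENCODE 29, had 17.6, 0.00, 1.64, 16.4 and 13.8 FPKM with quizalofop-p-ethyl at 1 mM. With mesotrione at 1 mM it averaged 9.78 ± 2.66 FPKM, with isoxaflutole at 1 mM 7.53 ± 5.03 FPKM, and in control 1.18 ± 0.361 FPKM. A transcript of 3775 bases (75428217 to 75472699), with 3227 bases after the coding part, averaged 1.34 ± 2.22 FPKM with quizalofop-p-ethyl, 1.34 ± 1.93 FPKM with isoxaflutole and 0.515 ± 0.315 FPKM with mesotrione, and 3.24 ± 1.03 FPKM in control. The short transcript was near the level of control in 2 of 5 libraries of quizalofop-p-ethyl, and in 1 of these the long one reached 5.28 FPKM. Since FPKM divides by length, a fragment given to the shorter transcript adds more to the summed level. With 1 fixed length for the gene, JDP2 averaged 12.05 ± 3.997 FPKM with quizalofop-p-ethyl at 1 mM and 11.3 ± 1.47 FPKM in control, a log2 fold change of 0.04 with an adjusted p of 0.926. On the same scale it averaged 8.18 ± 1.46 FPKM with mesotrione, a log2 fold change of -0.43 with an adjusted p of 0.581. Over all 9 alternatives the adjusted p ran from 5.011e-06 to 0.926 for quizalofop-p-ethyl and from 0.00966 to 0.633 for mesotrione. The mesotrione call was also lost when replicate 1, 2 or 5 of mesotrione or replicate 2, 4 or 5 of control was left out, with adjusted p of up to 0.104.

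**Figure D4:**
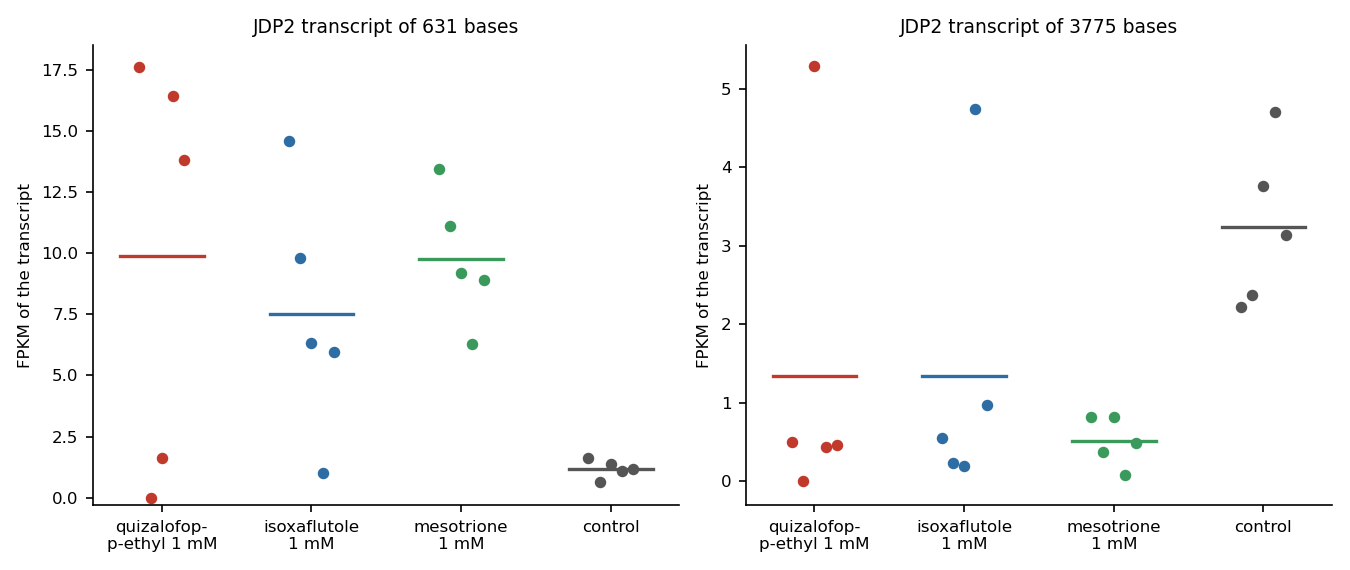
FPKM of the JDP2 transcripts of 631 bases (left) and 3775 bases (right) in each library at 1 mM of the 3 compounds and in control, with bars for group means. The short transcript averages 9.90 FPKM with quizalofop-p-ethyl and 1.18 FPKM in control, with 2 of 5 quizalofop-p-ethyl libraries at 0.00 and 1.64 FPKM, and the long one averages 1.34 FPKM with quizalofop-p-ethyl and 3.24 FPKM in control.

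At 10 uM and 0.1 uM none of the 10 genes was called for any of the 3 compounds against control, and none had an unadjusted p under 0.05. limma called 0.00826% of all tested genes with quizalofop-p-ethyl at 10 uM and 0 in the other 5 low concentration groups. The log2 fold changes of the 10 genes ran from -0.19, for MAFF with isoxaflutole at 0.1 uM, to 0.45, for JDP2 with quizalofop-p-ethyl at 10 uM. MAFF averaged 3.23 ± 0.345 FPKM and FOSL1 6.71 ± 1.44 FPKM with quizalofop-p-ethyl at 10 uM, against 3.28 ± 0.314 and 6.73 ± 2.03 FPKM in control. JUND averaged 85.99 ± 8.41 FPKM and JUN 19.0 ± 4.27 FPKM at that concentration, again next to the control means of 84.2 and 20.2 FPKM.

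The differences between 1 mM and 10 uM of the same compound do not use the control levels, although the control libraries enter the shared estimate of spread. For quizalofop-p-ethyl the same 6 genes as against control were higher at 1 mM, where 11.6% of all tested genes were called higher and 31.2% in either direction. The log2 difference was 3.04 for MAFF, 2.17 for FOSB, 2.03 for FOSL1, 1.57 for JUN and 1.26 for JUND, each with no overlap between 5 libraries at 1 mM and 4 at 10 uM. How many of all tested genes had no such overlap was not computed. JDP2 was 0.63 higher (adjusted p = 0.0313) with overlapping groups. That call was lost with 1 fixed length for the gene (0.23), without a filter on low levels, with the 2 groups fitted alone, and when replicate 1, 4 or 5 at 1 mM or replicate 1 or 3 at 10 uM was left out, with adjusted p of 0.00523 to 0.524 over its 9 alternatives. For isoxaflutole none of the 10 was called by limma between 1 mM and 10 uM, where 2.84% of all tested genes were. Of the 10, 3 had an unadjusted p under 0.05, as had 3436 of 24222 tested genes. For mesotrione none was called, where 0.970% of all tested genes were. Of the 10, 1 had an unadjusted p under 0.05, as had 2373 of 24222 tested genes.

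The compounds were set against each other at matched concentrations. Quizalofop-p-ethyl at 1 mM was higher than isoxaflutole at 1 mM in MAFF, FOSB, FOSL1, JUN and JUND, where 11.7% of all tested genes were called higher and 29.7% in either direction. MAFF averaged 36.9 ± 18.4 FPKM with quizalofop-p-ethyl and 2.68 ± 0.457 FPKM with isoxaflutole, a log2 difference of 3.25 (SE 0.17, adjusted p = 2.046e-19). The differences of the other 4 were 2.08 for FOSL1, 1.84 for FOSB, 1.13 for JUN and 1.03 for JUND. The interval was 0.11 to 0.98 for JDP2 (adjusted p = 0.0505), -0.03 to 0.98 for FOS, -0.01 to 0.42 for FOSL2, -0.27 to 0.18 for JUNB and -0.45 to 0.62 for EGR1. Of these, FOSL2, JDP2 and FOS were called in some of the 9 alternatives, with adjusted p of 0.00461 to 0.7101 for FOSL2, 0.0233 to 0.258 for JDP2 and 0.0116 to 0.530 for FOS. Median-ratio scaling called FOSL2 (0.30) and JDP2 (0.64), and JDP2 was also called without replicate 1 of isoxaflutole (0.70) or replicate 3 of quizalofop-p-ethyl (0.70).

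Against mesotrione at 1 mM the same 5 genes were higher with quizalofop-p-ethyl, where 12.6% of all tested genes were called higher and 30.2% in either direction. MAFF averaged 36.9 ± 18.4 FPKM with quizalofop-p-ethyl and 2.22 ± 0.446 FPKM with mesotrione, a log2 difference of 3.44 (SE 0.17, adjusted p = 2.588e-20). The differences of FOSL1, FOSB, JUN and JUND were 1.86, 1.75, 1.25 and 1.13. JDP2 averaged 16.2 ± 4.14 FPKM with quizalofop-p-ethyl and 13.6 ± 2.11 FPKM with mesotrione, with an interval of -0.23 to 0.64.

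Isoxaflutole and mesotrione at 1 mM did not differ in any of the 10 genes by limma, with 0 at an unadjusted p under 0.05 and 0.256% of all tested genes called. The interval of the difference, isoxaflutole over mesotrione, was -0.08 to 0.28 for JUND, -0.15 to 0.54 for MAFF and -0.44 to 0.26 for FOSB. It was widest for EGR1, at -0.69 to 0.38. At 10 uM and 0.1 uM none of the 10 genes was called between any pair of compounds, with none at an unadjusted p under 0.05. The shares of all tested genes called were 0.00413% for quizalofop-p-ethyl against isoxaflutole at 10 uM, 0.0124% for quizalofop-p-ethyl against mesotrione at 10 uM, and 0 in the other 4 pairs.

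A second pattern cut across the groups. The titles carry sample numbers in 5 runs of consecutive numbers, each with 1 library of every group. In the 10 libraries numbered 27 to 36, EGR1 ran from 56.7 to 88.8 FPKM, above all of the other 39 libraries, where the highest was 51.7 FPKM. EGR1 was the 1 gene of 24222 tested with that separation. EGR1 and EGR2, a relative with the same kind of zinc fingers, were the 2 tested genes that were highest in their own group in this run in 10 of 10 groups, and 15 genes were so in 9 or more. FOS, JUN and FOSL1 were highest in 9 of 10 groups, JUNB in 8, JUND in 7, MAFF in 5 and JDP2 in 3. How many of all tested genes reached 7 or 8 groups was not computed. For FOS the median was 16.4 FPKM in this run and 9.66 FPKM in the other libraries, and for JUN 27.01 FPKM in this run and 19.0 FPKM in the others. FOSB was highest in 1 group and FOSL2 in 1. Estimated depth was 7080000 to 30900000 fragments in this run, which holds the shallowest of the 49 libraries, and 8510000 to 33890000 fragments in the others. The part of depth in this pattern was not tested, and the labels do not say what the runs stand for.

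**Figure D5:**
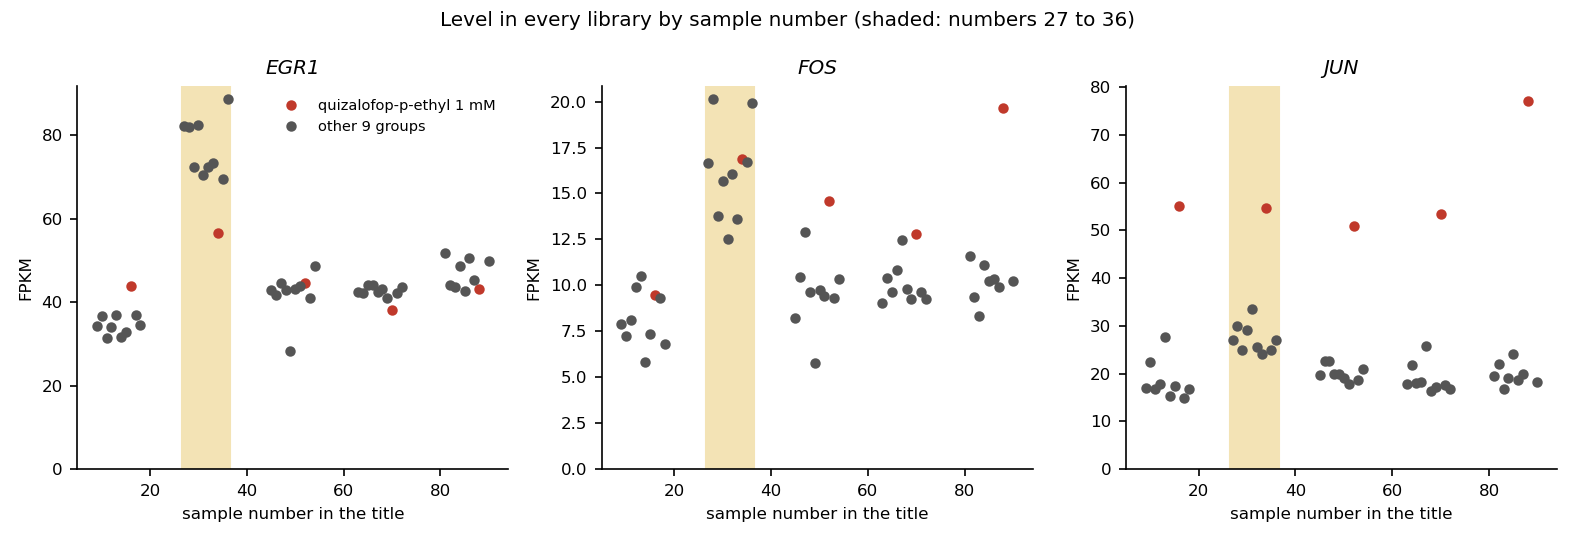
FPKM of EGR1, FOS and JUN in each of 49 libraries against the sample number in its title; red points are quizalofop-p-ethyl at 1 mM, grey points the other 9 groups, and the shaded band marks numbers 27 to 36. All 10 EGR1 values in the band lie at 56.7 FPKM or above and all others at 51.7 FPKM or below, and the 5 red points for JUN lie above all grey ones.

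Within runs, FOS was higher with quizalofop-p-ethyl at 1 mM than in the control library of the same run in 5 of 5 runs: 9.48 against 7.91, 16.9 against 16.7, 14.6 against 8.22, 12.8 against 9.06 and 19.7 against 11.6 FPKM in the runs by rising sample number. Without the 10 libraries numbered 27 to 36, a choice made after seeing these values, FOS was called for quizalofop-p-ethyl at 1 mM (log2 fold change 0.54, adjusted p = 0.0326, with adjusted p of 0.0202 to 0.577 over its 9 alternatives). For EGR1 the same pairs were 43.9 against 34.3, 56.7 against 82.1, 44.7 against 42.9, 38.0 against 42.4 and 43.3 against 51.7 FPKM. EGR1 was thus higher than control in 2 of 5 runs. How many of all tested genes were higher in 5 of 5 runs, as FOS was, was not computed. The runs did not meet the criterion for a pairing given in the last section.

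Within groups some of the genes also moved together outside quizalofop-p-ethyl at 1 mM. Over 44 libraries, with deviations from the group mean of log2(FPKM + 1), the 4 highest values of Pearson's r among 45 pairs were 0.919 for FOS and EGR1, 0.915 for JUN and EGR1, 0.881 for FOS and JUN and 0.869 for FOS and JUND. The libraries numbered 27 to 36 are among these 44, and r is given as a description. FOSB, under 1 FPKM in most of these libraries, had an r of 0.02 with FOS and -0.10 with EGR1. Its values ran from -0.173 with JUND to 0.356 with JDP2. FOSL2, near 20 FPKM, had an r of -0.01 with FOS, -0.01 with JUND and -0.02 with EGR1. It had higher values of 0.559 with FOSL1, 0.437 with JUNB, 0.338 with FOSB, 0.232 with JUN, 0.145 with MAFF and 0.085 with JDP2. JDP2 had 0.085 to 0.356 with the other 9 genes.

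The genes whose log2(FPKM + 1) was most like that of a called gene over all 49 libraries were mostly ones that also rose with quizalofop-p-ethyl at 1 mM, and r is again a description. MAFF was closest to DUSP5 (r = 0.987), a phosphatase that switches off ERK, DUSP15 (0.979) and AREG (0.972), a ligand of the EGF receptor. Without quizalofop-p-ethyl at 1 mM r with MAFF was 0.703 for DUSP5, 0.221 for DUSP15 and 0.333 for AREG over 44 libraries. FOSL1 was closest to GDF15 (0.961), a secreted stress factor, and TESK1 (0.945). JUN was closest to JUND (0.958), GDF15 (0.935) and PLEKHM2 (0.935), and JUND to SRXN1 (0.964), an antioxidant enzyme, AXIN1 (0.963) and TESK1 (0.962). FOSB was closest to HMGA1 (0.938), SESN2 (0.931) and GIT1 (0.929), and without quizalofop-p-ethyl at 1 mM r was 0.356 for HMGA1, 0.506 for SESN2 and 0.273 for GIT1. For TESK1 with FOSL1 r was then 0.598, and for the genes named beside JUN and JUND it was 0.718 to 0.845. JDP2 had no close neighbour, with SCAMP4 (0.737), TNFRSF12A (0.699) and GNA11 (0.696) as the nearest.

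Of the partners and relatives with a basic leucine zipper, 14 of 25 tested were higher and 2 lower than control with quizalofop-p-ethyl at 1 mM. Over all tested genes 13% were higher and 32.7% were called in either direction. The median log2 fold change was 0.71 in this list and -0.08 over all tested genes. ATF4, the main factor of the integrated stress response, averaged 292 ± 32.7 FPKM in exposed cells and 61.7 ± 10.6 FPKM in control (2.23). ATF3, a stress-induced factor, averaged 67.5 ± 52.4 FPKM in exposed cells and 8.23 ± 1.64 FPKM in control (2.51). DDIT3, which encodes CHOP, averaged 16.2 ± 6.25 FPKM in exposed cells and 2.12 ± 0.879 FPKM in control (2.46), and NFIL3 24.9 ± 8.30 FPKM in exposed cells and 4.46 ± 0.468 FPKM in control (2.20). None of the 25 was called with isoxaflutole or mesotrione at 1 mM, where 3 had an unadjusted p under 0.05 with each. Over all 24222 tested genes, 3056 had one with isoxaflutole and 2268 with mesotrione.

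Of the other immediate early genes tested, 9 of 20 were higher and 4 lower with quizalofop-p-ethyl at 1 mM, beside 13% higher and 32.7% in either direction over all tested genes. The median was 0.18. PPP1R15A, a phosphatase subunit that reverses the translation block of the integrated stress response, averaged 152 ± 63.6 FPKM in exposed cells and 17.9 ± 1.73 FPKM in control (log2 fold change 2.93). KLF4, a zinc finger factor, averaged 14.6 ± 2.21 FPKM in exposed cells and 3.16 ± 0.410 FPKM in control (1.90), and MYC, a growth factor-responsive regulator, 91.8 ± 28.8 FPKM in exposed cells and 25.04 ± 4.17 FPKM in control (1.80). CTGF, a secreted matrix protein, fell, with 6.33 ± 3.06 FPKM in exposed cells and 33.7 ± 4.65 FPKM in control (-2.37). ZFP36L2, an RNA-binding protein, was the 1 gene of this group called with isoxaflutole (-0.32) and with mesotrione (-0.31) at 1 mM.

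The MAP kinase cascade and its ternary complex factors, which carry signals to the FOS and EGR1 promoters, had 10 of 24 tested genes higher and 3 lower with quizalofop-p-ethyl at 1 mM, against the same 13% and 32.7% over all tested genes. The median was 0.19. RPS6KA2, a kinase below ERK, averaged 26.8 ± 3.19 FPKM in exposed cells and 12.3 ± 0.749 FPKM in control (1.06), and SRF, serum response factor itself, 13.8 ± 2.33 FPKM in exposed cells and 8.03 ± 0.675 FPKM in control (0.71). MAP2K6, an activator of p38, fell (-1.54), as did ELK3, a ternary complex factor (-0.49). MAP2K1 was the 1 gene called with isoxaflutole at 1 mM (0.23), and none was called with mesotrione. With mesotrione 5 of the 24 had an unadjusted p under 0.05, as had 2268 of 24222 tested genes.

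Feedback inhibitors of the cascade were higher in 10 of 17 tested genes and lower in 1 with quizalofop-p-ethyl at 1 mM, where 13% of all tested genes were higher and 32.7% called. The median was 0.43. DUSP5 averaged 37.6 ± 21.1 FPKM in exposed cells and 3.93 ± 0.558 FPKM in control (2.84). DUSP1, a phosphatase of JNK and p38, averaged 32.8 ± 15.6 FPKM in exposed cells and 11.1 ± 3.66 FPKM in control (1.41), and SPRY2, an inhibitor of receptor signalling, 9.70 ± 1.90 FPKM in exposed cells and 2.94 ± 0.205 FPKM in control (1.42). ERRFI1, an inhibitor of the EGF receptor, was called with all 3 compounds at 1 mM, with 47.1 ± 12.6 FPKM for quizalofop-p-ethyl, 29.7 ± 5.47 FPKM for isoxaflutole and 26.8 ± 2.78 FPKM for mesotrione, against 17.3 ± 2.78 FPKM in control.

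Among textbook targets of AP-1, 8 of 16 tested genes were higher and 3 lower with quizalofop-p-ethyl at 1 mM, with 13% higher and 32.7% called over all tested genes. The median was 0.52. VEGFA, an angiogenic factor, averaged 87.3 ± 15.7 FPKM in exposed cells and 20.8 ± 2.20 FPKM in control (2.00), and HMOX1, heme oxygenase, 3.06 ± 3.06 FPKM in exposed cells and 0.374 ± 0.225 FPKM in control (1.35). CCL2, a chemokine, averaged 3.70 ± 1.51 FPKM in exposed cells and 18.004 ± 5.95 FPKM in control (-2.04). MMP13, a collagenase, fell with all 3 compounds at 1 mM, to 0.0622 ± 0.0416 FPKM with quizalofop-p-ethyl, 0.0867 ± 0.0634 FPKM with isoxaflutole and 0.240 ± 0.109 FPKM with mesotrione, against 2.76 ± 0.554 FPKM in control. TIMP1, an inhibitor of such proteases, fell with isoxaflutole (-0.50) and mesotrione (-0.51). Assembled transcripts with no gene name are not in these levels. When each was added to its locus, where that held 1 gene name, the counts for quizalofop-p-ethyl at 1 mM became 16 higher and 2 lower of 25 bZIP relatives, 10 and 6 of 24 in the MAP kinase list, 11 and 2 of 17 feedback inhibitors and 8 and 4 of 16 AP-1 targets. For isoxaflutole at 1 mM they became 0 higher and 2 lower of the bZIP relatives, 1 and 1 of the other immediate early genes, 1 and 2 of the feedback inhibitors and 1 and 3 of the AP-1 targets. For mesotrione at 1 mM the AP-1 targets became 1 higher and 2 lower.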

How the data were processed

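The deposited table gives FPKM per transcript, which the authors made with HISAT, HISAT2 and StringTie on GRCh38, per the submitters' processing notes. Versions, and how strand was used in counting, are not given in the sources used here. In all, 24 values below 0 were set to 0 and 1 broken line was rejoined. Depth was estimated from the commonest value of FPKM times length among short single-exon transcripts, taken as that of 1 fragment, and is approximate. FPKM is relative to each library's total. Transcript FPKM were summed per gene name. Genes that reached 1 FPKM in 5 or more of 49 libraries were tested with limma 3.58.1 (R 4.3.3) on log2(FPKM + 1), with 1 mean per group, a trended and robust prior, and Benjamini-Hochberg adjustment within each comparison. Tables and plots were made with Python 3.11.15, pandas 2.3.3, numpy 2.4.6 and matplotlib 3.10.9. The fit was tested on simulated data.

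The 10 genes and the gene lists were chosen with earlier results of these data known. The text names all 10 genes, up to 4 called genes per list and comparison with the largest change, and the 3 genes most correlated with each called gene among 8201 with a symbol and a group mean of at least 5 FPKM. Genes that this rule picks but the text does not name are not reported here. EGR2, GENCODE transcripts and repeated list genes were named after their values were seen. The alternatives tried were median-ratio scaling, a pseudocount of 0.1, all genes without a filter, the 2 groups alone, the 5 runs of sample numbers as a block, unnamed transcripts added, all 50 libraries, and each library left out. A fixed length per gene, and the data without sample numbers 27 to 36, were added after seeing the data.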

Additional observations from a re-analysis of the deposited data

Results flagged for a closer look

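In 17 of 100 gene and group combinations the highest or lowest library lay far from the rest of its group by Dixon's criterion, which chance meets in about 1 in 20. For FOS these were the replicates 2 of mesotrione at 0.1 uM (15.7 FPKM), mesotrione at 1 mM (20.1 FPKM), quizalofop-p-ethyl at 0.1 uM (19.9 FPKM) and quizalofop-p-ethyl at 10 uM (16.7 FPKM). For EGR1 they were the replicates 2 of mesotrione at 1 mM (82.02 FPKM), quizalofop-p-ethyl at 0.1 uM (88.8 FPKM) and quizalofop-p-ethyl at 10 uM (69.6 FPKM). For JUN they were replicate 2 of mesotrione at 0.1 uM (29.2 FPKM), replicate 2 of mesotrione at 1 mM (29.99 FPKM), replicate 5 of quizalofop-p-ethyl at 1 mM (77.1 FPKM) and replicate 1 of control (26.9 FPKM). JUNB was high in replicate 2 of isoxaflutole at 10 uM (52.8 FPKM) and of quizalofop-p-ethyl at 0.1 uM (61.1 FPKM), and FOSL1 in replicate 1 of control (10.3 FPKM). The replicates 2 of the treated groups and replicate 1 of control carry sample numbers 27 to 36. FOSB was high in replicate 3 of mesotrione at 0.1 uM (0.730 FPKM). MAFF was low in replicate 1 of isoxaflutole at 0.1 uM (2.21 FPKM) and at 10 uM (2.18 FPKM).

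The effects of the compounds at 1 mM differed by limma's test of the difference itself in 5 of the 10 genes. Between quizalofop-p-ethyl and isoxaflutole the log2 difference was 3.25 for MAFF, 2.08 for FOSL1, 1.84 for FOSB, 1.13 for JUN and 1.03 for JUND. Between quizalofop-p-ethyl and mesotrione it was 3.44 for MAFF, 1.86 for FOSL1, 1.75 for FOSB, 1.25 for JUN and 1.13 for JUND. In each, all 5 quizalofop-p-ethyl libraries were the higher ones. The share of all tested genes for which that held between compounds was not computed.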

How the results depend on the processing

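For quizalofop-p-ethyl at 1 mM against control, the log2 fold change over the 9 alternatives and 10 left-out libraries stayed at 1.24 or more for MAFF, FOSB, FOSL1, JUN and JUND, each called throughout. The 6 genes called became 7 with the replicate block and without sample numbers 27 to 36, FOS added in both, and 5 with a fixed length per gene. The replicate block also called FOS and FOSL2 for quizalofop-p-ethyl against isoxaflutole at 1 mM, and leaving out sample numbers 27 to 36 called FOS against mesotrione. All genes called, 7926, became 4645 with all 50 libraries. For isoxaflutole at 1 mM against control, 0 of the 10 genes became 1 with a pseudocount of 0.1 (FOSB) and 3 with the replicate block (FOSL2, JUN and JUND), and 0 to 1 with a library left out (JUND, without replicate 3 of isoxaflutole). All genes called, 585, became 296 with the 2 groups alone, 880 with unnamed transcripts added, 80 with all 50 libraries and 317 without sample numbers 27 to 36, and 382 to 487 with a library left out. For mesotrione at 1 mM against control, 1 of the 10 genes became 2 with a pseudocount of 0.1 (FOSB added) or the replicate block (FOSL2 added), and 0 without a filter, with all 50 libraries, with a fixed length or without sample numbers 27 to 36, and 0 to 1 with a library left out. All genes called, 213, became 88 with the 2 groups alone, 343 with the replicate block, 365 with unnamed transcripts added, 26 with all 50 libraries and 106 without sample numbers 27 to 36. JDP2 with mesotrione reversed to -0.43 with a fixed length, which by construction takes out shifts between its short and long transcripts. For isoxaflutole at 1 mM against 10 uM, 0 of the 10 genes became 3 with the replicate block (FOSL2, JUN and JUND), 1 without sample numbers 27 to 36 (JUN), and 0 to 1 with a library left out. Where fewer libraries entered the fit, fewer degrees of freedom were left, and the causes of the other changes were not tested. Over all genes, deviations from the group mean correlated above 0.1 in 12 of 216 pairs of the same run, with a mean r of 0.0172. This did not meet the criterion for a pairing that every pair exceed 0.1. The mean r between runs, -0.0044, largely follows from taking out the group means and is not a separate observation. Yet 26 of 49 libraries were closest to their own run among the 5 runs, a hint from the data that runs share some variation. The count that chance alone would give was not computed. Depth is known only as an estimate, and levels under 1 FPKM, as for FOSB outside quizalofop-p-ethyl at 1 mM, rest on few fragments.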
